A study of Mus musculus with 36 samples.

Results

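C2C12 cells are a line of mouse myoblasts that fuse in low serum into myotubes, the multinucleated fibres of cultured muscle. The comparison described here is that of myotubes harvested 60 min after electrical pulse stimulation (EPS) with unstimulated myotubes harvested at the same time, 3 samples in each group and 6 of the 36 samples of the series. The groups were chosen by the treatment, time and title given to each sample. EPS passes current through carbon electrodes in the medium and makes myotubes contract, and the study describes the replicates as independent experiments. All samples were of the same cell line, in the same differentiation medium, and the groups differed in the pulses. The other 30 samples were control and EPS-stimulated myotubes at 0, 30, 120, 180 and 240 min, and they enter here for the spread between replicates and for comparison of time points. DNA methylation was measured by targeted bisulfite sequencing at the promoters of 3 genes, Nr4a3, Ppard and Ccnd1. The question put to these samples is whether methylation of the promoters differs between stimulated and resting myotubes at this time point.

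Methylation of cytosine, mostly where it is followed by guanine (CpG), is a DNA mark that often accompanies silent promoters, while CpG-rich promoters of active genes usually carry little of it. Bisulfite converts unmodified cytosine to uracil and leaves 5-methylcytosine and 5-hydroxymethylcytosine as cytosine, so the measured percentage holds both. Nr4a3 encodes an orphan nuclear receptor of the immediate early kind, whose transcription rises quickly with exercise in muscle. Ppard encodes PPAR delta, a nuclear receptor that drives fatty acid oxidation genes. Ccnd1 encodes cyclin D1, which takes cells from G1 into S phase and is turned down as myoblasts differentiate.

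The 171 listed cytosines fall into 6 blocks, if a gap of over 200 bp between neighbours is taken to begin a new block, and 117 of them had a value in all 36 samples. These 117 sites lie in 5 blocks, whose positions are given in GRCm38 (mm10) and whose listed cytosines are in capitals in the sequences below, which were read from the RefSeq assembly of that build. The sequences shown are those in which samples lay farthest apart, sites were listed at 0 in all samples or the groups did not overlap. The distal Nr4a3 block holds 38 sites at chr4:48042827-48043103, −2326 to −2050 bp from the transcription start site (TSS), in intergenic DNA of 74.7% GC.

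Nr4a3 distal, plus strand: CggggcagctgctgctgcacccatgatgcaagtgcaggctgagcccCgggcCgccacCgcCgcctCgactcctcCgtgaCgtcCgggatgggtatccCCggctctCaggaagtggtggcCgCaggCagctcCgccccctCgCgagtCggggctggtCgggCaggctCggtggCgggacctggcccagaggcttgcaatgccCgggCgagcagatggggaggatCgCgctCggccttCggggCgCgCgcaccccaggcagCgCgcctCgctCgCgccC

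The sequence TGACGT, the core of the cAMP response element bound by CREB, was searched on both strands. Its CpG is a listed site at −2247 bp of the distal block. Of 32851 RefSeq mouse promoter windows cut to the same length of 277 bp, 7.21% hold these letters on either strand. The proximal block of Nr4a3 has 9 sites with a value in all 6 samples at 60 min, from −122 to −45 bp at chr4:48045031-48045108, and TGACGT covers the sites at −76 and −50 bp. In promoter windows cut to that length of 78 bp, the share with the letters is 0.989%. Both sets of windows hold the first letters of each promoter sequence and were not matched to the distance of the blocks from the TSS. A match of letters is a description of the sequence and not of binding.

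Nr4a3 proximal, plus strand: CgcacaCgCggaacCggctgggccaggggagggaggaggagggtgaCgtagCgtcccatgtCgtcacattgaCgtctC

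The upstream block of Ppard has 12 sites with a value in every sample at chr17:28232454-28232627, −300 to −127 bp from the TSS and intergenic, all of them CpG sites. A second block of Ppard, with 8 sites, lies in an intron at chr17:28233460-28233606, 706 to 852 bp downstream of the TSS.

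Ppard upstream, plus strand: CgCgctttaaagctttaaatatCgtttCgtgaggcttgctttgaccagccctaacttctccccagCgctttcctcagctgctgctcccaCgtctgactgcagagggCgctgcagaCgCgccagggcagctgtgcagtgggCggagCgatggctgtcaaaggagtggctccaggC

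Ccnd1 is transcribed from the minus strand, so the distances listed as positive lie upstream of its TSS. Its near block holds 16 sites 389 to 566 bp upstream, at chr7:144940258-144940435. Its far block holds 43 sites 1260 to 1643 bp upstream, at chr7:144941129-144941512. Both are intergenic. The 23 sites of the far block between the bisulfite primers run from 1429 to 1613 bp upstream, and their sequence is given from the most upstream to the nearest site.

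Ccnd1 far between the primers, chr7:144941298-144941482, minus strand: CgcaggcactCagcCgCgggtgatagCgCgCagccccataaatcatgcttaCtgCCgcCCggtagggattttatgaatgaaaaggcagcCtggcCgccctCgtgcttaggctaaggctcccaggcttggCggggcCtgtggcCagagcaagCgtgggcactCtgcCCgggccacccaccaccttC

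The values are percent methylation without coverage or read counts, and their depth is unknown. They change smoothly from site to site. On a log scale, a single component held 98.8% of the variance within groups in the distal Nr4a3 block. In the other blocks it held between 59.3% and 90.4%. Sites were not scaled to equal variance, so those with the widest spread weigh most in this share, and it is not a measure of smoothness. Cytosines outside CpG follow their CpG neighbours, and sites beyond the amplified fragments also have values. No source used here states a smoothing step, and the value of a site may draw on its neighbours. Sites of a block are therefore not separate measurements, and the comparison was made on the mean of each block in each sample. With 3 samples against 3 the exact permutation test can give no two-sided p under 0.1. Of the 171 sites, 171 had a value in control replicate 1, 126 in control replicate 2 and 140 in each of the other samples at 60 min.

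At 60 min no block mean differed between EPS and control beyond the spread of the samples, and the groups overlapped in all 5 blocks. Taken as the median over sites, the far Ccnd1 block had every EPS sample above every control (exact permutation test, p = 0.1). The means of both groups were low, between 2.01% and 4.85%. EPS minus control lay between −0.0518 and 0.433 percentage points. In limma, fitted to log2(beta/(1 − beta)) of the block means of all 36 samples, with beta the methylated fraction, the Benjamini-Hochberg adjusted p over 30 tests of block and time point was 0.992 in each of the 5 blocks. The share of blocks called at an adjusted p under 0.05 was thus 0%. The block means were the tightest in the far Ccnd1 block, where the highest of the 6 samples was 1.18 times the lowest, and the widest in the distal Nr4a3 block, where it was 29.4 times the lowest.

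**Figure D1:**
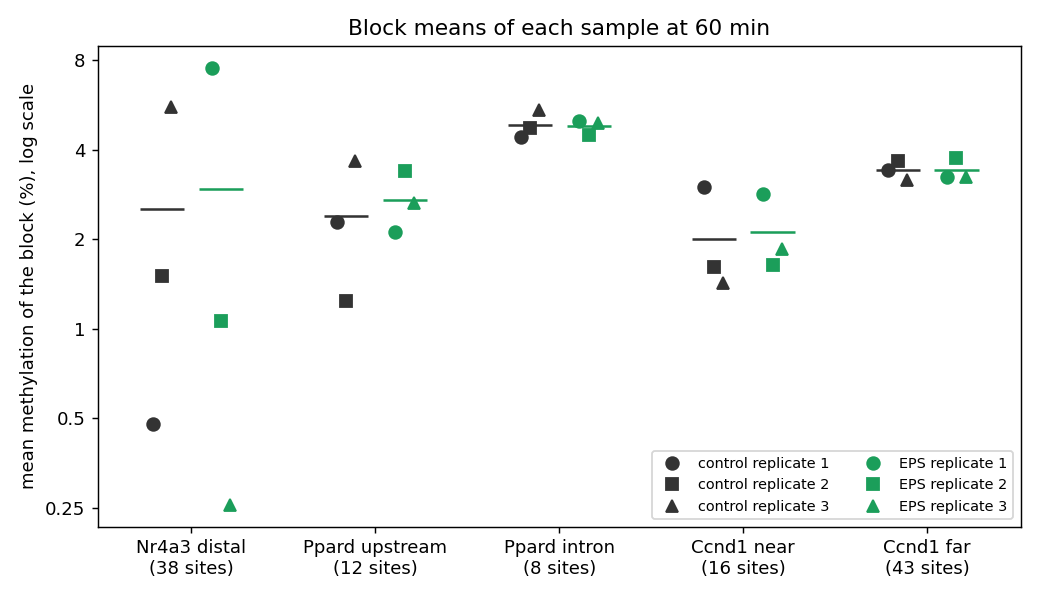
Mean methylation of each block in each sample at 60 min, in percent on a log axis, with control samples in black and EPS samples in green; symbols stand for replicate numbers and horizontal lines for group means. The groups overlap in each of the 5 blocks, and the 6 samples lie between 0.256% and 7.53% in the distal Nr4a3 block against 3.16% to 3.74% in the far Ccnd1 block.

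The distal block of Nr4a3 had means of 0.479%, 1.50% and 5.58% in the control samples and 7.53%, 1.07% and 0.256% in the EPS samples, in the order of replicates 1, 2 and 3. The highest and the lowest sample were both EPS samples. The group means were 2.52% ± 2.70 (SD, n = 3) in control and 2.95% ± 3.99 (SD, n = 3) after EPS. EPS minus control was 0.433 percentage points (p = 0.9, exact permutation test). On the log2 scale the difference had the opposite sign, −0.31, and the odds of methylation after EPS were 0.805 times those in control, with a 95% interval of 0.120 to 5.40. The interval spans changes of several times in either direction, so a change of that size was not detectable in these samples.

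The wide spread came from 6 CpG sites at the end of the block nearest the gene, from −2067 to −2050 bp, which lie beyond the amplified fragment. Their mean was 1.18%, 7.31% and 33.3% in the control samples and 45.8%, 4.85% and 0% in the EPS samples. The highest and the lowest were EPS samples, and control replicate 3 was the next highest. The 6 sites made up 39.1% to 94.3% of the summed methylation of the block in control samples, 96.0% in EPS replicate 1, 71.8% in EPS replicate 2 and 0% in EPS replicate 3. At −2067 bp, the site with the highest mean and the largest difference of the block, control samples had 14.8% ± 16.5 and EPS samples 18.0% ± 26.0 (SD, n = 3 each). The last site, at −2050 bp, had 12.7% ± 17.9 in control and 14.9% ± 23.3 after EPS (SD, n = 3 each). The same 6 sites also ranged widely at 30 min, where control replicate 2 was at 75% and EPS replicate 3 at 62.8%. The samples lay closer together at 0 min, from 1.13% to 5.90%, and at 180 min, from 0% to 8.98%. At 120 min they ran from 0% to 20% and at 240 min from 0% to 20.2%.

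**Figure D2:**
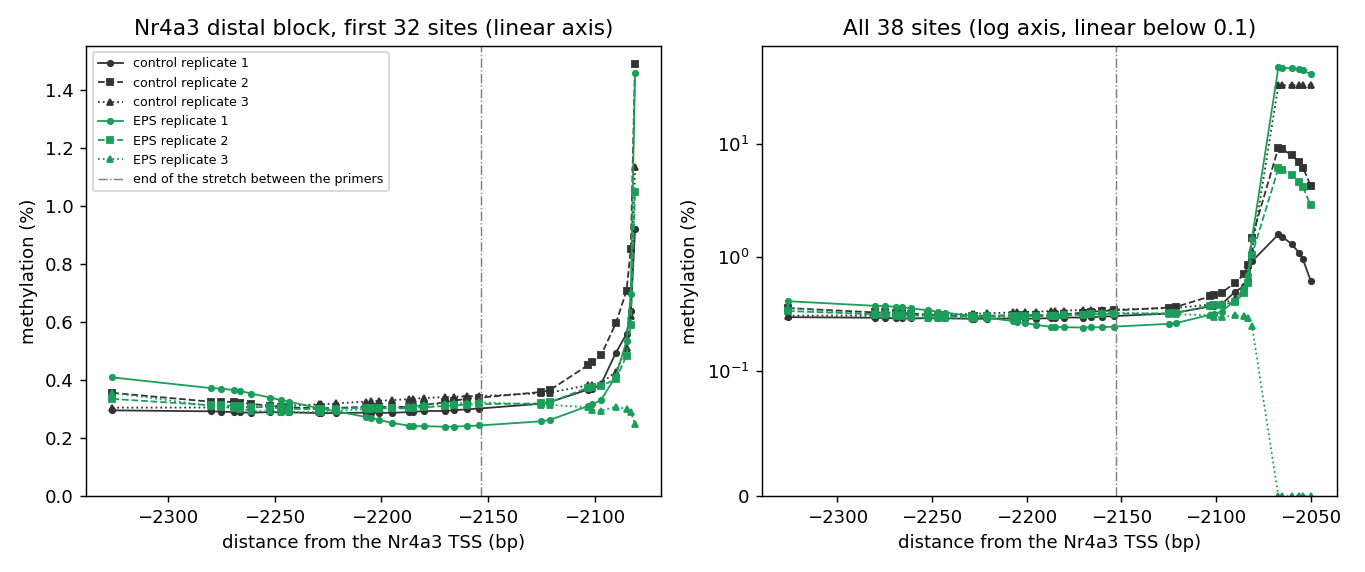
Methylation in percent at each listed cytosine of the distal Nr4a3 block at 60 min against the distance from the TSS in bp, with 1 line for each control (black) and EPS (green) sample. The left panel has the first 32 sites on a linear axis, the right panel all 38 on a log axis that is linear below 0.1; the dash-dotted line marks the end of the stretch between the primers, and beyond −2081 bp the samples spread from 0% to 47.8%.

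Over the 22 sites between the primers the samples lay close together. The means were 0.291%, 0.316% and 0.324% in control samples and 0.294%, 0.307% and 0.305% in EPS samples. All 3 EPS samples fell inside the range of the controls. The difference was −0.0082 percentage points, from 0.310% ± 0.0171 to 0.302% ± 0.0068 (SD, n = 3 each; exact permutation test, p = 0.5). With 1 sample left out it lay between −0.0179, without control replicate 1, and −0.0015, without control replicate 3. In limma on this stretch the odds ratio was 0.974 with a 95% interval of 0.851 to 1.12 (limma adjusted p = 0.962). Along this side of the block EPS replicate 1 crossed the other samples. It had the highest mean of the 6 samples over the 9 sites from −2326 to −2243 bp, at 0.360%, and the lowest over the 10 sites from −2195 to −2121 bp, at 0.247%. The CpG in TGACGT at −2247 bp had 0.289%, 0.308% and 0.311% in control samples and 0.331%, 0.303% and 0.291% in EPS samples, and the groups overlapped. The first site, at −2326 bp, had the smallest unadjusted p of all 117 sites at 60 min, with 0.320% ± 0.0325 in control and 0.367% ± 0.0383 after EPS (SD, n = 3 each), a log2 difference of 0.20 (SE 0.11). The limma p was 0.0880 before and 1.00 after adjustment over all sites and time points, with all 36 samples in the model.

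Beyond the primers, the 9 sites from −2125 to −2081 bp had means of 0.487%, 0.642% and 0.507% in control samples and 0.510%, 0.478% and 0.298% in EPS samples. EPS replicate 1 lay above 2 of the 3 controls, and EPS replicate 3 was the lowest sample. The mean after EPS was lower at 9 of the 9 sites, by −0.116 percentage points on average, by −0.0510 without EPS replicate 3 (8 of 9 sites lower) and by −0.0682 without control replicate 2. This stretch was set off after its values were seen, so no test is given for it. It holds 3 sites at which every EPS sample lay below every control sample, which is 2.56% of all 117 sites. In either direction, the groups did not overlap at 5.13% of the 117. At −2121 bp control samples had 0.325% to 0.366% and EPS samples 0.263% to 0.324%. At −2097 bp the ranges were 0.386% to 0.486% and 0.295% to 0.381%. At −2090 bp they were 0.429% to 0.597% and 0.309% to 0.414%.

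Nearer the gene, the 9 sites of the proximal Nr4a3 block from −122 to −45 bp were listed at 0 in all 6 samples, the CpG sites of both TGACGT matches among them. The 14 sites from −260 to −166 bp had no value in control replicate 2 and were listed at 0 in control replicate 1 and in all 3 EPS samples. Control replicate 3 had 1.01% to 13.9% at these sites, with a mean of 3.10%. No site of the proximal block had a value in all 36 samples, so the block is not in the limma model. The 31 sites of Ppard from −1 to 252 bp had values at 60 min in control replicate 1 alone, all of them listed at 0.

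The upstream block of Ppard had 2.28%, 1.24% and 3.66% in control samples and 2.12%, 3.39% and 2.64% in EPS samples. Control samples were both the lowest and the highest of the 6. Control had 2.40% ± 1.22 (SD, n = 3) and EPS 2.72% ± 0.641 (SD, n = 3), which differed by 0.320 percentage points or 1.13 times (exact permutation test, p = 0.8). The direction turned to −0.257 percentage points without control replicate 2, to −0.017 without EPS replicate 2 and to −0.347 with the median over sites, and without control replicate 3 the difference was 0.954. The odds ratio was 1.23 with a 95% interval of 0.697 to 2.16. The level fell along the block towards the TSS, and the difference changed sign along it. The 4 sites from −300 to −273 bp had 5.51%, 2.96% and 7.81% in control samples and 5.55%, 8.89% and 6.62% in EPS samples, higher after EPS on average at 4 of 4 sites. EPS replicate 2 was the highest sample and control replicate 2 the lowest. The difference over these sites was 1.59 percentage points, and it fell to 0.364 when control replicate 2 was left out and to 0.659 when EPS replicate 2 was. Without control replicate 3 it was 2.79. These 4 sites made up 71.0% to 87.4% of the summed methylation of the block in the 6 samples. At −300 bp, the first site and the one with the largest difference, the means were 5.27% ± 2.40 and 6.96% ± 1.75 (SD, n = 3 each), and at −273 bp, the site with the highest mean, 5.58% ± 2.42 and 7.10% ± 1.65 (SD, n = 3 each).

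The 6 sites from −194 to −127 bp had much lower values, 0.289%, 0.0997% and 1.11% in control samples and 0.0063%, 0.0105% and 0.115% in EPS samples. EPS replicate 3 lay above control replicate 2, so the groups overlapped, and the other EPS samples were below all controls. The mean was lower after EPS at 6 of 6 sites, by −0.456 percentage points, and by −0.150 without control replicate 3. At −194 bp, the site with the smallest p of the block, control samples ranged from 0.236% to 0.919%, and the EPS samples had 0.0379%, 0.0629% and 0.287%. The log2 difference there was −1.51 (SE 0.86, limma adjusted p = 1.00). In that fit beta was held 0.001 from 0 and 1, and the EPS values of 0.0379% and 0.0629% entered at this limit. The size of the log2 difference and its p thus depend on the limit. The last site, at −127 bp, was listed at 0 in all 3 EPS samples and in control replicate 2, and had 0.289% and 1.64% in the other control samples. Both stretches of this block were set off after their values were seen, so no test is given for them.

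The intronic block of Ppard was one of the tightest. Its means were 4.42%, 4.71% and 5.44% in control samples and 5.00%, 4.48% and 4.92% in EPS samples, so that each EPS sample lay inside the range of the controls. The odds ratio was 0.991 with a 95% interval of 0.803 to 1.22 (exact permutation test, p = 1). The mean was lower after EPS at 8 of 8 sites, each time by less than the SD of the controls at the named sites. Without EPS replicate 2 it was higher at 8 of 8 sites, by 0.109 percentage points, and without control replicate 3 at 5 of 8, by 0.239. Without 1 of the other samples it was lower at 3 to 8 of the 8 sites, by −0.113 to −0.271 percentage points. At 706 bp it was 3.38% ± 0.369 in control and 3.37% ± 0.542 after EPS, and at 765 bp, the site with the smallest p, 3.57% ± 0.303 and 3.51% ± 0.191 (SD, n = 3 each). At 852 bp, the last site and the one with the highest mean and the largest difference, it was 7.46% ± 1.71 and 7.32% ± 0.329 (SD, n = 3 each).

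The near block of Ccnd1 had 2.98%, 1.62% and 1.42% in control samples and 2.83%, 1.64% and 1.86% in EPS samples. Replicate 1 was the highest sample in both groups. The odds ratio was 1.08 with a 95% interval of 0.592 to 1.98 (exact permutation test, p = 0.7). The difference had opposite signs in the 2 parts of the block, which were divided after their values were seen. Over the 9 sites from 389 to 436 bp upstream the mean was lower after EPS at 9 of 9 sites, by −0.106 percentage points. It was higher at 9 of 9 sites, by 0.514, 0.154 and 0.0215 percentage points, without control replicate 1, EPS replicate 2 and EPS replicate 3, and between −0.494 and −0.375 percentage points without any 1 of the others. Over the 7 sites from 460 to 566 bp it was higher at 7 of 7 sites, by 0.371 percentage points. There the difference was 0.0456 without control replicate 3 and 0.0477 without EPS replicate 1, with 4 of 7 sites higher in each case, and 0.692 without control replicate 1 and 0.569 without EPS replicate 2. The means at 519 bp, where the difference was the largest of the block, were 1.73% ± 0.678 and 2.26% ± 0.496, and at 490 bp, the site with the smallest p, 0.733% ± 0.495 and 1.15% ± 0.330 (SD, n = 3 each). The first and last sites, at 389 and 566 bp, had 2.55% ± 1.31 and 3.88% ± 0.807 in control and 2.45% ± 0.792 and 4.11% ± 0.970 after EPS (SD, n = 3 each).

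The far block of Ccnd1 had nearly equal means, 3.40%, 3.67% and 3.16% in control samples and 3.24%, 3.74% and 3.23% in EPS samples. The difference was −0.0104 percentage points and the odds ratio 0.996, with a 95% interval of 0.864 to 1.15 (exact permutation test, p = 1). This mean was set by 14 sites outside the amplicon, which made up 86.0% to 89.2% of the summed methylation of the block in the 6 samples. Their means were 9.21%, 9.97% and 8.67% in control samples and 8.71%, 10.1% and 8.52% in EPS samples, and the groups overlapped. At 1260 bp, the first site and the one with the highest mean, methylation was 15.0% ± 1.44 in control and 14.5% ± 1.04 after EPS (SD, n = 3 each).

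Between the primers of the far Ccnd1 block, methylation was higher in every EPS sample than in every control sample. Of the sites there, 13 are CpG sites and 10 are not. At 1447 bp, a CpG site, the means were 0.369% in control and 0.407% after EPS, and at 1448 bp, outside CpG, 0.368% and 0.407%. The difference is therefore not one of CpG sites alone, and what part of these low levels is methylation was not tested. The means over the 23 sites were 0.425%, 0.421% and 0.313% in control samples and 0.467%, 0.454% and 0.492% in EPS samples. The control mean was 0.386% ± 0.0638 and the EPS mean 0.471% ± 0.0191 (SD, n = 3 each), 0.0846 percentage points or 1.22 times higher. The exact permutation test gave p = 0.1, the smallest it can give. In limma the log2 difference was 0.30, the odds ratio 1.23 with a 95% interval of 0.887 to 1.71, and the adjusted p = 0.962, so the separation did not pass a test. Of the 5 stretches between primers, the groups were separate in this 1 at 60 min, a share of 20%, and over the 6 time points in 2 of 30, a share of 6.67%. The difference was 0.0477 percentage points without control replicate 3, the lowest sample, and 0.104 without control replicate 1.

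Along these 23 sites the mean was higher after EPS at each site, from 0.0013 percentage points at 1429 bp to 0.157 at 1613 bp, and it was so at 22 or 23 of them with any 1 sample left out. The samples did not keep 1 order. EPS replicate 2 was the lowest of the 6 samples at 1484 bp, at 0.304%, and the highest at 1613 bp, at 0.525%. The groups were separate at 3 neighbouring sites, which is 2.56% of all 117 sites. Each sample had nearly the same value at these 3 sites, so they are not separate measurements. At 1583 bp control samples ranged from 0.209% to 0.391% and EPS samples from 0.407% to 0.483%. The ranges were 0.205% to 0.389% and 0.407% to 0.484% at 1585 bp, and 0.200% to 0.387% and 0.403% to 0.491% at 1587 bp. The levels at the far end of the block were 0.276% ± 0.125 in control and 0.461% ± 0.126 after EPS at 1638 bp, the site with the smallest p, and 0.274% ± 0.127 and 0.459% ± 0.132 at 1643 bp, the last site (SD, n = 3 each). The groups overlapped at both.

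**Figure D3:**
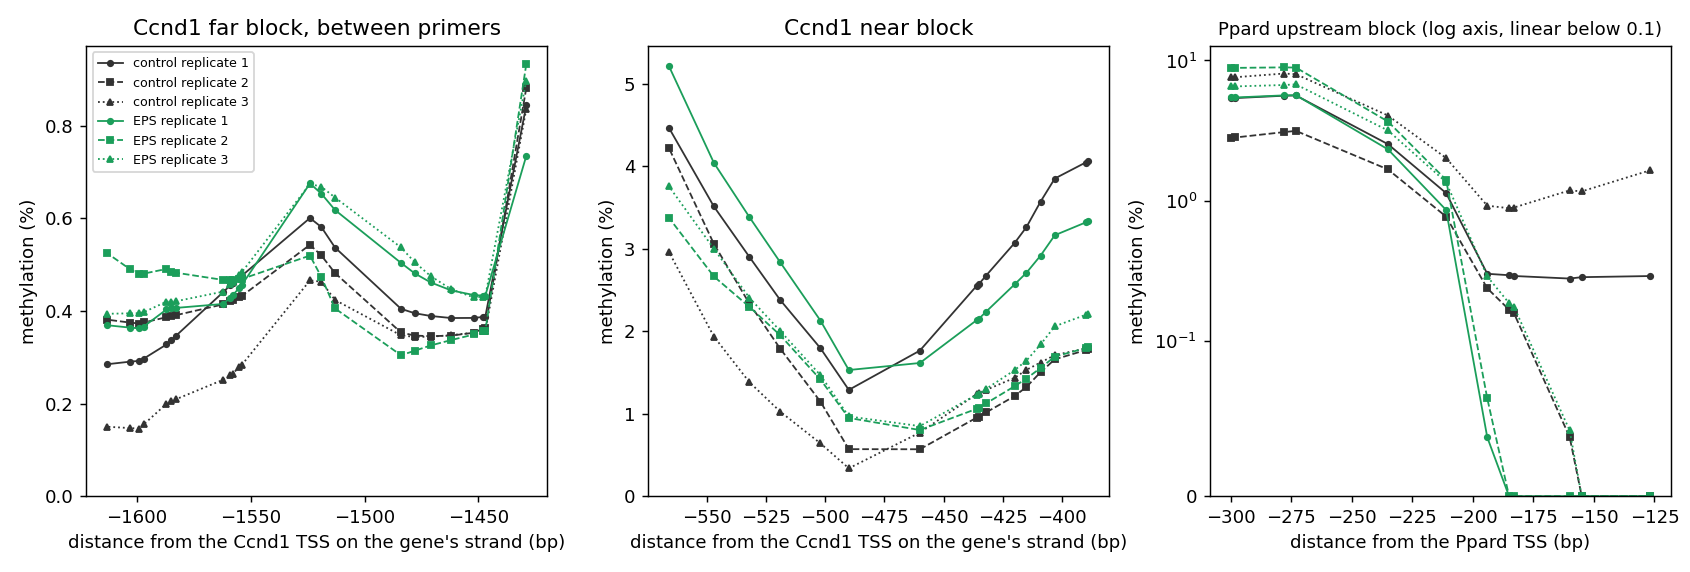
Methylation in percent at each site at 60 min in control (black) and EPS (green) samples, in the far Ccnd1 block between the primers, the near Ccnd1 block and the upstream Ppard block, against the distance from the TSS in bp counted along the strand of the gene. The third panel has a log axis that is linear below 0.1; in the first panel EPS samples lie above the controls from 1583 to 1587 bp upstream and cross them elsewhere.

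At other time points the same stretch of Ccnd1 did not separate the groups. Its difference was 0.0429 percentage points at 0 min, 0.0162 at 30 min, −0.0290 at 120 min, 0.0043 at 180 min and 0.0281 at 240 min. Over the 18 control samples of all time points it ranged from 0.253% to 0.524%, with a median of 0.404%. Of these, 5 were above the lowest EPS sample at 60 min and 3 above the highest. The EPS effect at 60 min, set against the mean of the effects at the other 5 time points, was 0.27 on the log2 scale (limma adjusted p = 0.715).

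**Figure D4:**
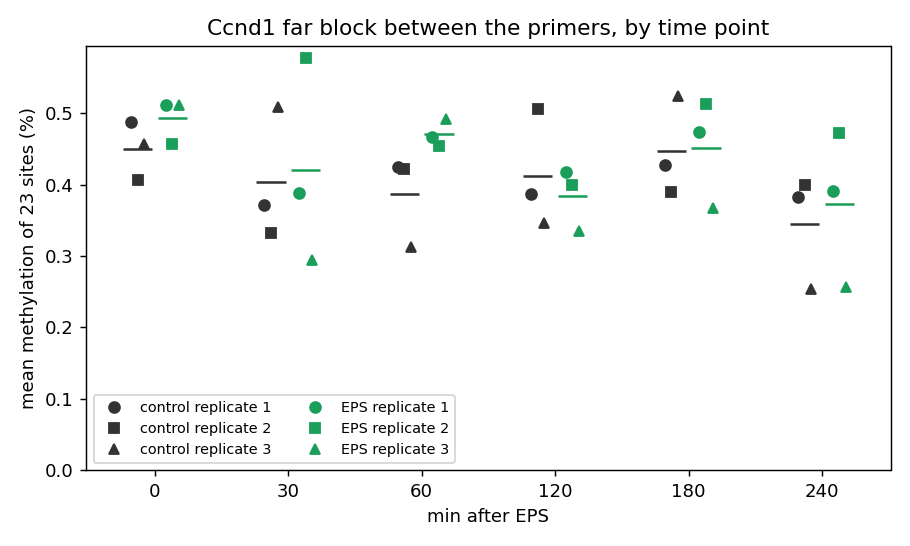
Mean methylation in percent over the 23 sites of the far Ccnd1 block between the primers in each control (black) and EPS (green) sample, by min after EPS; horizontal lines are group means. At 60 min the 3 EPS samples, 0.454% to 0.492%, lie above the 3 controls, 0.313% to 0.425%, and at the other time points the groups overlap.

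Over all 117 sites, the mean at 60 min was lower after EPS at 64 sites, 54.7%, and higher at 53. These counts turned with single samples, with 45 sites lower without EPS replicate 3 and 65 lower without EPS replicate 1. No site was called by limma at an adjusted p under 0.05 over 702 tests of site and time point (0%), and 0 sites had an unadjusted p under 0.05. At the other time points the count at an unadjusted p under 0.05 was between 0 and 2. The groups did not overlap at 3 sites with lower values after EPS, 2.56%, and at 3 with higher values, 2.56%, which are the Nr4a3 and Ccnd1 sites named above. Together these were 5.13% of the sites, within the 0% to 9.4% found at the other time points.

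The difference at 60 min was also set against those at the other time points in each block. In limma, the 60 min effect minus the mean effect at the other 5 time points was −0.40 in the distal Nr4a3 block, 0.32 in the upstream and −0.079 in the intronic Ppard block, and 0.17 in the near and −0.036 in the far Ccnd1 block (log2, adjusted p = 0.785 in each). In percentage points, the distal Nr4a3 block had its highest difference of the 6 time points at 60 min, against −0.492 to 0.331 at the others. On the log2 scale its difference at 60 min was the lowest of the 6, −0.31 against −0.30 to 0.39. The intronic Ppard block had its lowest there, −0.0518 against −0.0016 to 0.339, and so did the far Ccnd1 block, −0.0104 against 0.0026 to 0.201. The other blocks lay inside the range of the other time points. Block means of the 18 controls ranged from 0.256% to 12.3% in the distal Nr4a3 block, 0.975% to 5.69% in the upstream Ppard block, 3.89% to 5.75% in its intron, 0.730% to 4.24% in the near and 2.88% to 3.67% in the far Ccnd1 block. Each control range is wider than the difference at 60 min. A range of single samples over all time points is not comparable with a difference between group means, so no conclusion is drawn from it.

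**Figure D5:**
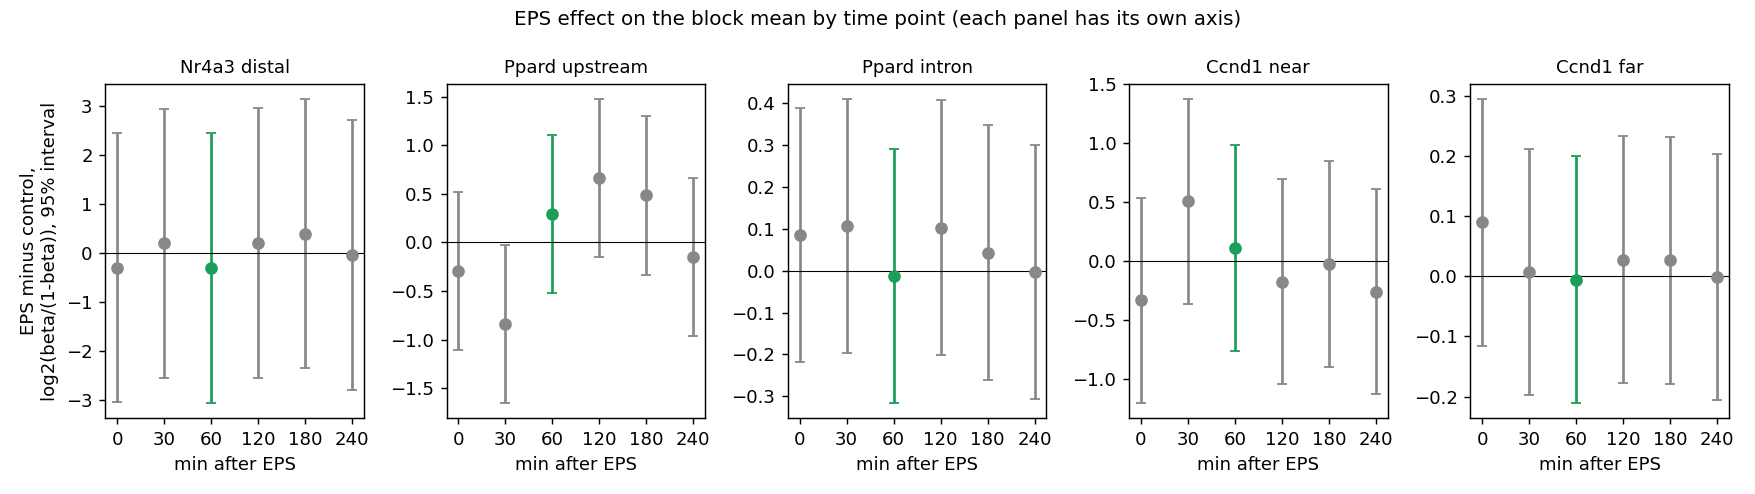
EPS minus control on the log2(beta/(1 − beta)) scale for the mean of each block at 0 to 240 min after EPS, with 95% intervals from limma and 60 min in green; each panel has its own axis. At 60 min every interval includes 0, from −3.06 to 2.43 in the distal Nr4a3 block and from −0.21 to 0.20 in the far Ccnd1 block.

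The effect of EPS was compared between blocks within samples, in 10 pairs of blocks. For each pair the difference between the blocks in log2(beta/(1 − beta)) was taken in every sample and compared between the groups. The smallest p was 0.6 in the exact permutation test and 1 after Benjamini-Hochberg adjustment over the pairs. No block was thus shown to respond differently from another at 60 min.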

How the data were processed

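Genomic DNA was bisulfite-converted and amplified in a multiplexed PCR with 35 cycles, and the authors trimmed the reads (Trim Galore 0.3.7, Cutadapt 1.4.2) and quantified methylation after mapping to mm10 with Bismark and Bowtie2. The authors deposited percent methylation per cytosine and sample. Coverage is not given in the files used here, so depth and counting error are unknown and no coverage minimum was applied. A deposited table of the authors' p-values for each gene and time point was not used. Groups and numbers came from the labels; for 1 control at 0 min the title (replicate 3) was used over the replicate field (2).

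Positions were computed from the listed TSS and distances. Sites with a value in all 36 samples were averaged by block, and the groups were compared with two-sided exact permutation tests and with limma 3.58.1 (eBayes, 12 group means, 24 residual degrees of freedom, R 4.3.3) on log2(beta/(1 − beta)), beta held 0.001 from 0 and 1. Adjustment was by Benjamini-Hochberg. limma was also run on data simulated from the residuals of these samples, with and without a shift at the far Ccnd1 sites. No statement here rests on that run. Named sites were, in each block, the first and last, the highest, the one with the largest difference and the one with the smallest limma p; the exact tests on sites between the primers were also planned, while the limma fits on them and all other sites and stretches were chosen after their values were seen. The members, blocks and lists were chosen with earlier results of these data known. Alternatives were the median, centred samples, other site sets, references and scales, a replicate block, and each sample left out.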

Additional observations from a re-analysis of the deposited data

How the results depend on the processing

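No alternative gave an adjusted p under 0.05. Of 173 alternative values for 15 differences, 45 reversed, 32 of them on leaving out 1 sample, and 128 kept their direction, 39 of these at the same value as reported. The number of sites called was 0 under each of its 10 alternatives. The lowest limma adjusted p was 0.591 and the lowest exact permutation p was 0.1. In percentage points, the difference in the distal Nr4a3 block was −0.0066 with the median over sites, −0.0082 between the primers and −0.0369 without the 6 sites from −2067 to −2050 bp, a choice made after seeing the data. The upstream Ppard block gave −0.347 and the intron 0.0105 with the median, and the near Ccnd1 block −0.0774 with centred samples. The far Ccnd1 block gave 0.10 with the median, 0.0846 between the primers and 0.110 against all 18 controls. With the median and between the primers the exact permutation p was 0.1, and the groups did not overlap. In limma, the distal Nr4a3 block gave 0.433 percentage points on the percent scale, and 0.575 against the other time points. The far Ccnd1 block between the primers gave 0.30 on the log2 scale, and 0.27 against the other time points. Why these values reversed was not tested.

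With 1 sample left out, differences ranged from −1.86 to 1.96 percentage points in the distal Nr4a3, −0.257 to 0.954 in the upstream and −0.271 to 0.239 in the intronic Ppard, and −0.257 to 0.592 in the near and −0.179 to 0.119 in the far Ccnd1 block. In limma the ranges were −1.63 to 0.86, −0.12 to 0.68, −0.081 to 0.076, −0.12 to 0.45 and −0.078 to 0.051 in the same order, and against the other time points −1.72 to 0.77, −0.093 to 0.71, −0.15 to 0.0098, −0.069 to 0.50 and −0.11 to 0.020.

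The deviations of control and EPS samples of the same number from their group means were correlated over 117 sites on the log2 scale. At 60 min the correlations were −0.80, 0.31 and −0.70. Over the 6 time points they ran from −0.80 to 0.92, with all 3 pairs above 0.1 at 120 min alone. Sites were not scaled to equal variance, so those with the widest spread between samples weigh most in these correlations. In the whole-block means of both Ccnd1 blocks the same-numbered samples deviated the same way at 60 min. Between the primers of the far block they deviated in opposite ways in each pair. These values do not decide whether the numbers mark pairs, and the numbers were not taken to pair the samples. With a replicate block the differences are the same by construction, for example 0.433 percentage points in the distal Nr4a3 block. The limma adjusted p was then 0.985 in each block and 0 sites were called. Without coverage, how far depth limits these values cannot be stated.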
